A study of Mus musculus with 4 samples.

Results

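Tgm2, Plaur, Palld, Igfbp4, Foxs1, Vim, Gsn, Lum, Pdgfrb and Tuba8 are 10 genes of tissue structure: a protein crosslinker, cell surface receptors, secreted matrix and growth factor binding proteins, cytoskeletal proteins and a transcription factor. They were followed in ILC3s (innate lymphoid cells of group 3) sorted from small intestine of mice, by their rows among the 12546 genes tabulated for 1 pair of libraries and the 15242 tabulated for another. The genes were chosen on measured values, since many of them had far higher RNA levels in ILC3s that carried the surface glycoprotein CD93 than in ILC3s that did not. Their differences in that pair are therefore a description, and no support is drawn from them. Not all of them are matrix genes: Tuba8, Vim, Palld and Foxs1 code for proteins inside the cell.

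ILC3s are lymphocytes without rearranged antigen receptors, and in the gut they are known for IL-22 and IL-17. In all groups the cells had been sorted as live, CD45 low, negative for CD3 and high for CD90.2. The CD93 pair is CD93-positive against CD93-negative ILC3s of wild-type (WT) mice, sorted after a cell suspension had been cultured for 12 h without stimulation. The other pair is ILC3s of Il17d-KO mice, which lack the cytokine IL-17D, against ILC3s of WT mice, all at steady state. The labels repeat the culture step for every library, and the sources used here do not say whether KO and WT cells were cultured. Each of the 4 groups had 1 library. Differences between groups therefore could not be set against replicates, and no test across samples could be run. The sources used here do not give age, sex or strain, or say whether animals were pooled.

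Levels are in FPKM, fragments per kilobase of gene scaled to the library, as deposited by the authors. The totals behind this scaling were between 11712846 and 27002581 fragments per library. Differences are log2 of (FPKM + 1) in one library over (FPKM + 1) in the other, and a gene was called measured where its FPKM was at least 1 in either library of a pair. Intervals in parentheses are 95% exact (Clopper-Pearson) counting intervals of the FPKM ratio, made from recovered read numbers. They cover counting error only. In the CD93 pair 10117 genes were measured, of which 2.49% were higher by 2-fold or more in the CD93-positive library and 1.94% lower by as much. With both libraries scaled to a common FPKM sum, the median of all genes moved from 0.04 to -0.12, and the share of higher genes among those past 2-fold moved from 56.2% to 36.9%. In the KO and WT pair 12376 genes were measured, and 16.6% were higher in KO by 2-fold or more and 12.7% lower by as much. The same scaling moved the median of all genes there from 0.01 to 0.17. Cd93 itself was higher in the CD93-positive library by 0.95 on the log2 scale, in the direction of its label but under the 2-fold limit. Its mean level over both libraries was 6.81 in log2(FPKM + 1), so the CD93-negative library also held much Cd93 RNA. All 14 listed ILC3 markers were measured in both pairs. In bulk RNA, fewer cells of a type and less RNA per cell cannot be told apart.

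As background, cells that cross tissue can take hold of matrix, reshape actin or loosen protein fibres around them, to an extent that varies with the cell type. Transglutaminase 2 crosslinks proteins and, outside the cell, binds fibronectin. The urokinase receptor holds urokinase at the cell surface, where it turns plasminogen into plasmin, and it also binds vitronectin. Palladin, gelsolin, vimentin and tubulin build or remodel the cytoskeleton, whereas lumican and the PDGF receptor beta are best known from fibroblasts and the cells around vessels.

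All 10 genes were at least 2-fold higher in the CD93-positive library, which the choice of the genes largely fixes, against the 2.49% of all measured genes given above. Their median difference was 2.38, against 0.04 for all measured genes. Summed over the genes, the FPKM was 511 in the CD93-positive and 116 in the CD93-negative library, from 25098 and 5774 reads. In the CD93-positive library the levels ran from 10.8 for Pdgfrb to 165 for Tgm2, and in the CD93-negative library from 1.61 for Igfbp4 to 50.2 for Vim. All 10 lay above the middle of the table's levels in CD93-positive cells, whereas Igfbp4, Tuba8, Pdgfrb, Lum and Palld lay below it in CD93-negative cells.

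**Figure D1:**
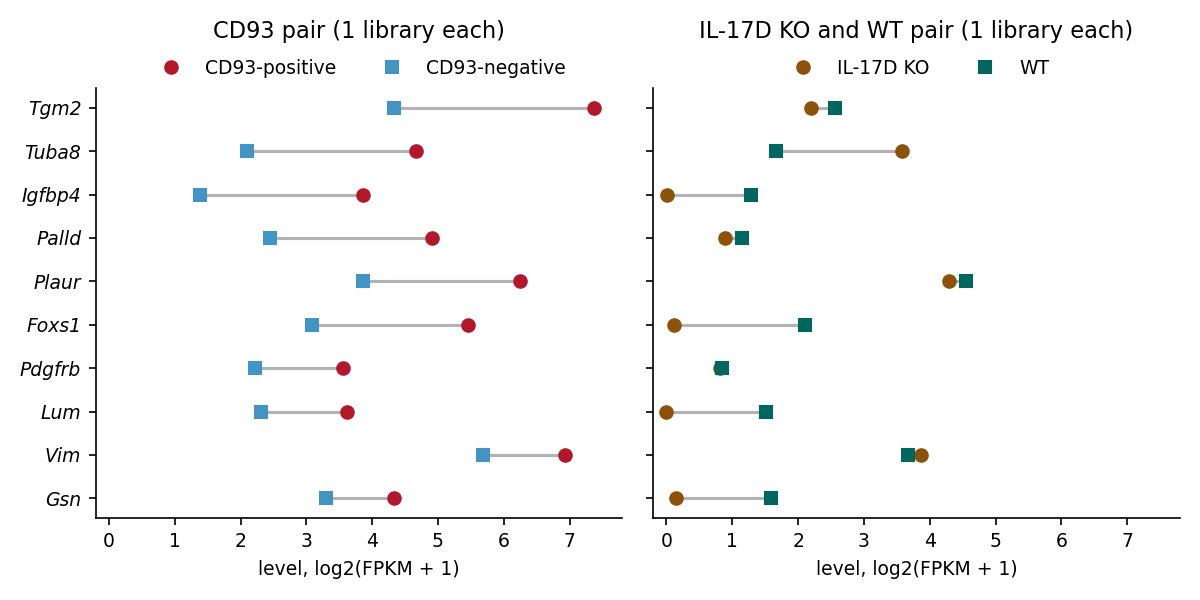
Level of each of the 10 genes in each library, as log2(FPKM + 1) on the horizontal axis; each point is 1 library, and the left and right panels are the CD93 pair and the KO and WT pair. In the left panel every CD93-positive point lies to the right of its CD93-negative point; in the right panel Tuba8 lies further right in KO, and Igfbp4, Lum, Gsn and Foxs1 lie near 0 in KO.

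Tgm2 (ENSMUSG00000037820.15; mm10 chromosome 2, 158116402 to 158146436, minus strand) codes for transglutaminase 2, a calcium-dependent crosslinker that also binds GTP. Its level was 165 FPKM in the CD93-positive and 19.2 FPKM in the CD93-negative library, from 8881 and 1041 reads. The CD93-positive library was 8.59-fold higher (8.05 to 9.17). This was the highest difference of all 10117 measured genes, 3.04 on the log2 scale, and in the order of levels Tgm2 ranked 192 in the CD93-positive and 2601 in the CD93-negative library. Of the 4608 exonic bases of Tgm2, 21.8% overlap Rprd1b and Gm20412 on the opposite strand, and the sources used here do not say whether counting used strand. Rprd1b, which binds RNA polymerase II, had 995 and 601 reads in the same libraries, fewer than Tgm2 in each.

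Plaur (ENSMUSG00000046223.10; chromosome 7, 24462484 to 24475968, plus strand) codes for the urokinase receptor. It was at 75.3 FPKM in the CD93-positive and 13.5 FPKM in the CD93-negative library, a ratio of 5.58 (5.03 to 6.21). Igfbp4 (ENSMUSG00000017493.12; chromosome 11, 99041244 to 99054392, plus strand) codes for a secreted protein that binds insulin-like growth factors and keeps them from their receptor. Its level was 13.5 FPKM against 1.61 FPKM, from 699 and 84 reads, and the ratio was 8.38 (6.67 to 10.6). Igfbp4 had the lowest level of the 10 genes in CD93-negative cells, and its wide interval comes from those 84 reads.

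Palld (ENSMUSG00000058056.16; chromosome 8, 61511433 to 61902690, minus strand) codes for palladin, which bundles actin filaments in stress fibres and adhesions. Its level was 29.0 FPKM in CD93-positive and 4.46 FPKM in CD93-negative cells, from 3496 and 541 reads. That is a ratio of 6.51 (5.94 to 7.13). Palld is the longest of the 10 genes by exonic bases, with 10292 in 24 exon blocks, so that its reads outnumber those of Foxs1 although its level does not.

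The sequences just upstream of Plaur, Palld and Igfbp4 are printed. These genes were among the 6 with the highest ratios and have promoters in the RefSeq table used (GRCm38.p6). Tuba8 also meets both conditions but is not printed, and its matches are given below. Each printed sequence is the 120 bases that end at the base before the RefSeq start, 5′ to 3′ on the strand of the gene. Capitals mark matches, on either strand, to any of 6 motifs searched in 250 upstream bases: AP-1 (TGANTCA), the GC box (GGGCGG), the TATA box (TATAAA), the E box (CACGTG), the CArG box and the retinoid receptor half-site (AGGTCA). The stretches lie at chr7:24462363-24462482 on the plus strand, chr8:61591140-61591259 on the minus strand, inside an intron of the longer Palld transcripts except for its last bases, and chr11:99041124-99041243 on the plus strand.
Plaur: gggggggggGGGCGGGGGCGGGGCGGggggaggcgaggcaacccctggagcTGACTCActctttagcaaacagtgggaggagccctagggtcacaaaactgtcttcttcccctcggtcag
Palld: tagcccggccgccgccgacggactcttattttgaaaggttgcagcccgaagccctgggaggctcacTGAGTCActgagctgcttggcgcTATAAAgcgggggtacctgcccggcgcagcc
Igfbp4: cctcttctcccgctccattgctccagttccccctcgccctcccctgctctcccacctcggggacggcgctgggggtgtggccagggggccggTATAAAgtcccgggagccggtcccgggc

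AP-1 letters were found in Plaur at -69 and in Palld at -54, counted back from the start, and in 6.75% of all 32851 promoters of that table. The TATA box letters stood at -31 in Palld, -28 in Igfbp4 and -32 in Vim, and in 12.4% of all promoters. The 3 GC boxes of Plaur overlap or adjoin each other. GC box letters stood in 5 of the 10 promoter entries of these genes, of Plaur, Palld and Gsn, and in 32.7% of all promoters. Tuba8, also among the 6 highest ratios, held neither AP-1 nor TATA box letters but an E box and a retinoid half-site, which 6.02% and 14.0% of all promoters hold. The 10 promoter entries belonged to 6 of the genes (Plaur, Palld, Igfbp4, Vim, Gsn and Tuba8), and no CArG box was found in them. Palld and Gsn have 3 entries each. The sequence printed for Palld is the 1 of its 3 that holds any match, and the other Palld entries hold none of the 6 motifs. The table has no entry for Tgm2, Foxs1, Lum or Pdgfrb. A match is a run of letters and shows no binding.

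Tuba8 (ENSMUSG00000030137.8; chromosome 6, 121210696 to 121226854, plus strand) codes for an alpha tubulin of restricted tissue distribution. It was at 24.3 FPKM in CD93-positive and 3.26 FPKM in CD93-negative cells, a ratio of 7.45 (5.95 to 9.43). Of its 2263 exonic bases, 16.3% overlap Gm15856 on the opposite strand, and the strand setting of the counting is not known. Of its 50-base windows, 14.7% are also found in Gm15856, Tuba3a or Tuba3b, so part of its reads could be shared. Foxs1 (ENSMUSG00000074676.2; chromosome 2, 152931898 to 152933208, minus strand) codes for a forkhead transcription factor known from cells around vessels, and has a single exon. Its level was 42.9 FPKM against 7.50 FPKM, and its ratio was 5.72 (4.69 to 7.03).

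Vim (ENSMUSG00000026728.9; chromosome 2, 13573927 to 13582826, plus strand) codes for vimentin, the intermediate filament protein of leukocytes and mesenchymal cells. Its level was 120 FPKM in CD93-positive and 50.2 FPKM in CD93-negative cells, and the ratio was 2.40 (2.29 to 2.51). Vim was the most abundant of the 10 genes in CD93-negative cells and second to Tgm2 in CD93-positive cells. Gsn (ENSMUSG00000026879.14; chromosome 2, 35256380 to 35307892, plus strand) codes for gelsolin, which severs and caps actin filaments when calcium rises. It was at 19.1 FPKM and 8.89 FPKM, a ratio of 2.15 (1.88 to 2.45). At 1.02 on the log2 scale Gsn lay just above the 2-fold limit, and it fell below the limit under each of the 3 other scalings, which leaves 9 of the 10 genes above it.

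Lum (ENSMUSG00000036446.5; chromosome 10, 97565128 to 97572703, plus strand) codes for lumican, a keratan sulfate proteoglycan that binds collagen fibrils. Its level was 11.3 FPKM in CD93-positive and 3.95 FPKM in CD93-negative cells, from 325 and 114 reads, and the ratio was 2.87 (2.31 to 3.58). Pdgfrb (ENSMUSG00000024620.11; chromosome 18, 61045150 to 61085061, plus strand) codes for the receptor tyrosine kinase PDGF receptor beta. It was at 10.8 FPKM and 3.65 FPKM, a ratio of 2.95 (2.54 to 3.44).

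By ratio the 10 genes fell into a group of 6, from 5.58 for Plaur to 8.59 for Tgm2, and a group of 4, from 2.15 for Gsn to 2.95 for Pdgfrb. Between neighbours in the order of ratios, the counting intervals overlapped for 8 of 9 pairs, the exception being Plaur and Pdgfrb. In the order of levels in the CD93-positive library, 2 of 9 neighbouring pairs overlapped by their counting intervals, Igfbp4 with Lum and Lum with Pdgfrb. In the CD93-negative library 4 of 9 did: Gsn with Foxs1, Palld with Lum, Lum with Pdgfrb, and Pdgfrb with Tuba8. Spread between animals was not measured.

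**Figure D2:**
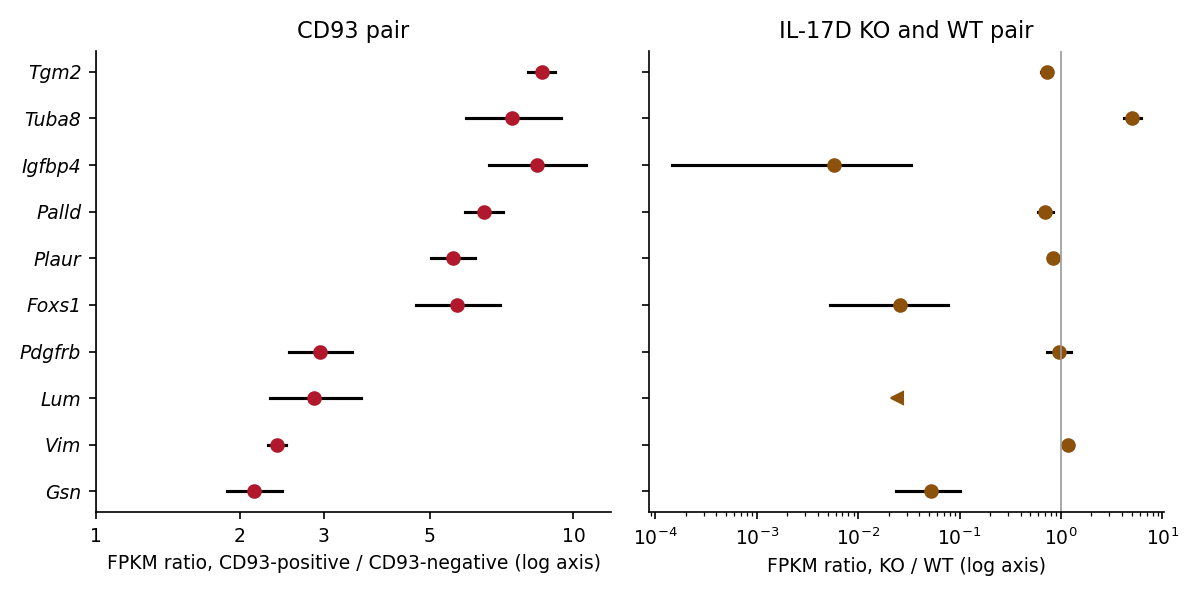
FPKM ratio of each of the 10 genes, on log axes that differ between the panels: CD93-positive over CD93-negative on the left and KO over WT on the right, with bars for the 95% counting interval and the vertical line at 1. The triangle for Lum is a bound, since it was listed at 0 in KO. On the left all ratios lie between 2.15 and 8.59; on the right Tuba8 is the one gene far above 1.

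The KO and WT pair was not used to choose the genes. Of the 9 genes measured there, 1 was higher by 2-fold or more in KO and 4 were lower by as much, beside 16.6% and 12.7% of all measured genes. Their median difference was -0.37, against 0.01 for all measured genes. Tuba8 was the higher gene, and Foxs1, Lum, Gsn and Igfbp4 were the lower ones. Pdgfrb was under 1 FPKM in both libraries and is outside these counts.

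Tuba8 was at 10.9 FPKM in KO and 2.17 FPKM in WT ILC3s, from 668 and 128 reads. Its ratio was 5.04 (4.17 to 6.14), and its difference, 1.91 on the log2 scale, ranked 581 from the highest of the 12376 genes. Tuba8 was the sole gene of the 10 at least 2-fold higher in the first named library of each pair. Its overlap with Gm15856, given above, applies to this pair too.

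The 4 lower genes had levels of a few FPKM in WT and hardly any reads in KO. Foxs1 was at 0.0847 FPKM in KO and 3.30 FPKM in WT, from 3 and 113 reads, a level 39.0-fold lower in KO (13 to 192). Igfbp4 had 1 read in KO and 166 in WT, at 0.00839 and 1.44 FPKM, which gives a 172-fold lower level (30.4 to 6827). Gsn had 9 and 166 reads, at 0.106 and 2.02 FPKM, and was 19.1-fold lower (9.82 to 42.5). Lum was listed at 0 in KO and at 1.86 FPKM in WT, from 119 reads, and against 3 reads in the KO library it was at least 41.1-fold lower; the counting interval, which also covers the WT reads, reaches down to 32.9-fold. All 4 were under 4 FPKM in WT, so that their differences on the log2 scale, between -1.28 and -1.99, understate these ratios.

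Fibroblast markers had low levels that were also lower in KO. Apart from Lum, the listed fibroblast markers summed to 0.181 FPKM in KO and 4.69 FPKM in WT. Of the 10 such markers 5 were tabulated, and 1 was measured, Mgp (matrix Gla protein), at 0.0312 and 2.49 FPKM, or 79.7-fold lower (13.9 to 3188) from 1 and 77 reads. Dcn (decorin) was at 0.0127 and 0.959 FPKM. The listed mast cell markers summed to 0 in KO and 4.62 FPKM in WT, all from Cpa3, whereas pericyte and smooth muscle markers other than Pdgfrb and Foxs1 summed to 0.229 and 0.291 FPKM. Markers of macrophages, T cells, B cells and epithelium were higher in KO, at 67.4, 281, 241 and 20.2 FPKM against 12.0, 137, 129 and 4.61 FPKM in WT. The part of these cells in the differences of Foxs1, Igfbp4, Gsn and Lum was not tested.

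The other matrix genes listed were higher in KO or within 2-fold, apart from those named above. Aspn (asporin), the other measured proteoglycan of the family of Lum, was at 2.49 FPKM in KO and listed at 0 in WT. The listed collagens and matrix glycoproteins summed to 8.80 and 3.58 FPKM, with 0 of 3 measured genes past 2-fold and a median of 0.63. Of 10 measured matrix proteases and crosslinkers 4 were higher and 0 lower, beside 16.6% and 12.7% of all measured genes, among them Adamts1 at 4.14 and 0.492 FPKM. The PDGF list without Pdgfrb summed to 3.98 and 0.995 FPKM, with 1 of 2 measured genes past 2-fold, Pdgfd, which was listed at 0 in WT.

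Tgm2, Plaur and Palld lay within 2-fold between KO and WT, as most measured genes did. Tgm2 was at 3.57 FPKM in KO and 4.92 FPKM in WT, 1.38-fold lower in KO (1.22 to 1.56). Its neighbour on the opposite strand, Rprd1b, had 961 and 2414 reads there, more than the 444 and 591 reads of Tgm2, and both overlap in their exons as described above. Plaur was at 18.6 and 22.4 FPKM, 1.21-fold lower (1.12 to 1.30), and was the most abundant of the 10 genes in both libraries. Palld was at 0.856 and 1.22 FPKM, 1.43-fold lower (1.20 to 1.69). Palld was thus near the 1 FPKM minimum in both libraries.

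Vim was at 13.6 FPKM in KO and 11.7 FPKM in WT, a ratio of 1.16 (1.08 to 1.25). Pdgfrb was at 0.764 and 0.798 FPKM, a ratio of 0.958 (0.732 to 1.25), and the sign of its difference turned under 2 of the alternative settings. In order of level, 4 of 9 neighbouring pairs overlapped by their counting intervals in KO and 4 of 9 in WT, where Tuba8, Gsn, Lum, Igfbp4 and Palld followed each other between 2.17 and 1.22 FPKM.

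**Figure D3:**
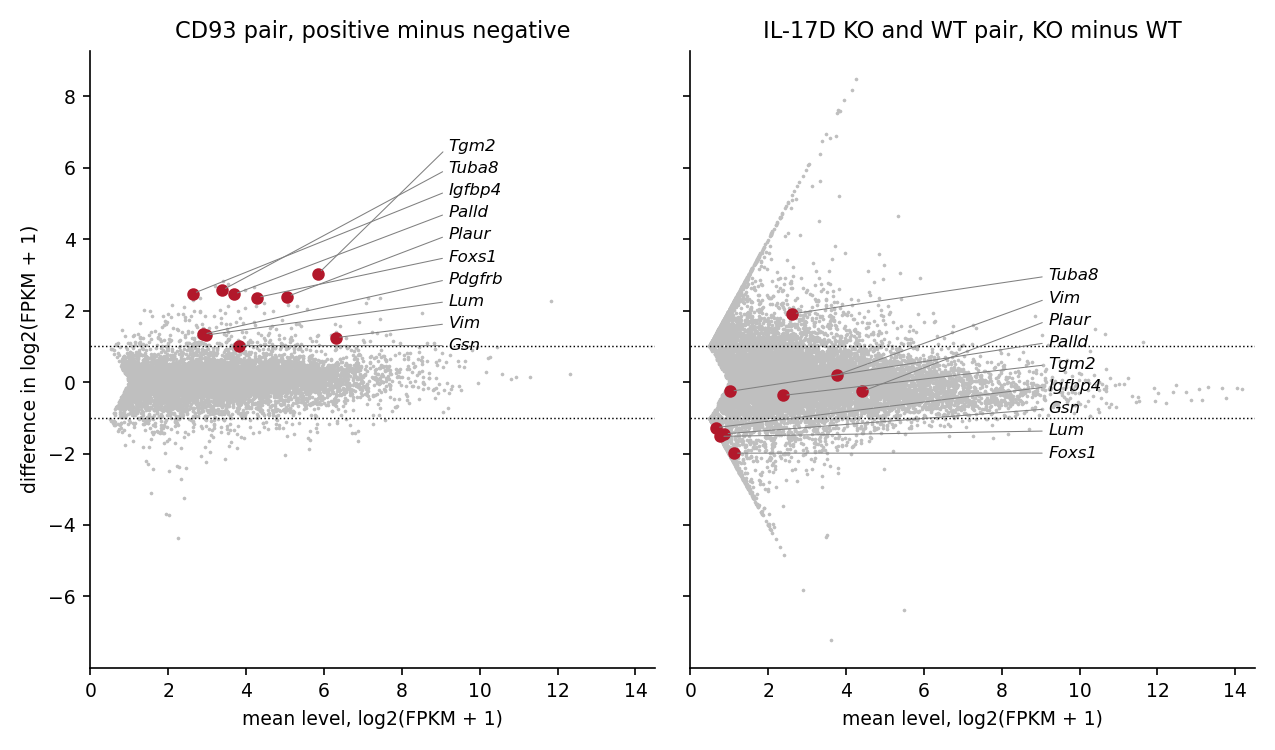
Difference in log2(FPKM + 1) against the mean level of the libraries of a pair, for all 10117 measured genes of the CD93 pair (left) and all 12376 of the KO and WT pair (right); grey points are genes, red points the 10 genes (9 on the right, without Pdgfrb), and dotted lines mark 2-fold. Tgm2 has the highest difference on the left; on the right the red points lie among the grey ones on either side of 0, from -1.99 for Foxs1 to 1.91 for Tuba8.

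Partners of the 10 genes were read from lists, with counts of those at least 2-fold apart, as a description. In the CD93 pair these counts and medians stand beside 2.49% of all measured genes higher, 1.94% lower and a median of 0.04, and in the KO and WT pair beside 16.6%, 12.7% and 0.01. In the CD93 pair the plasminogen activation list had 11 measured genes beside Plaur, of which 1 was higher and 0 were lower. It was Lrp1, an endocytic receptor that clears urokinase complexes from the cell surface, at 41.3 against 7.56 FPKM (5.46-fold, 5.17 to 5.76). The ligand Plau, urokinase, was low, at 1.91 and 3.33 FPKM. Plaur and Lrp1 thus differed more than their ligand did. The list's median with Plaur was 0.45, and its most abundant gene, Eno1 (enolase, also a plasminogen receptor), was at 323 and 183 FPKM.

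Of the transglutaminases, Tgm3 was the other one measured, at 1.22 and 1.27 FPKM. Tgm2 is also known as a target of retinoic acid. Among the 7 other measured genes of the retinoid list 1 was higher and 1 lower: Dhrs3, which reduces retinaldehyde, at 44.9 against 17.2 FPKM (2.60-fold, 2.37 to 2.87), and Aldh1a2, which makes retinoic acid, at 1.55 against 5.06 FPKM (3.27-fold lower, 2.29 to 4.76). The most abundant gene of the list after Tgm2 was the receptor Rara, at 45.5 and 25.9 FPKM. Between KO and WT, Dhrs3 was at 215 and 103 FPKM, while Tgm2 lay within 2-fold.

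Among the 6 other measured genes of the insulin-like growth factor list 1 was higher in CD93-positive cells, Igfbp7, a secreted binding protein, at 46.2 against 9.12 FPKM (5.06-fold, 4.19 to 6.16). The receptor Igf1r was at 60.0 and 40.6 FPKM, and the signalling adaptor Irs2, the most abundant of the list, at 257 and 163 FPKM. In the KO and WT pair Igfbp7 was higher in KO, at 4.20 against 1.43 FPKM, while Igfbp4 was lower.

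The 4 measured genes of the PDGF list, Pdgfrb included, were all at least 2-fold higher in the CD93-positive library, with a median of 1.42. The ligands were at 10.3 against 2.75 FPKM for Pdgfa, 18.1 against 5.75 FPKM for Pdgfb and 2.48 against 0.633 FPKM for Pdgfc. Their ratios were 3.77 (3.02 to 4.74), 3.14 (2.74 to 3.60) and 3.92 (2.73 to 5.76). With a common FPKM sum 3 of the 4 stayed above 2-fold. The other receptor, Pdgfra, was at 0.0341 and 0.0508 FPKM.

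Of the cytoskeletal lists, tubulins had the most genes past 2-fold. Beside Tuba8, 4 of 9 measured tubulins were higher and 0 lower in CD93-positive cells, and the median with Tuba8 was 0.96. They were Tuba1b (81.6 and 36.5 FPKM), Tuba1c (112 and 54.6 FPKM), Tubb4b (191 and 86.9 FPKM) and Tubb6 (119 and 49.9 FPKM), all between 2.05-fold and 2.38-fold. With a common FPKM sum, 2 tubulins in place of 5 were past 2-fold. In the KO and WT pair Tubb6 was higher in KO with Tuba8, at 43.7 against 17.1 FPKM, and Tuba4a, Tubb2a and Tubb2b were lower, at 8.08, 7.68 and 0.726 FPKM against 25.8, 28.2 and 4.48 FPKM.

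Of 21 measured actin bundle partners of palladin, 1 was higher in CD93-positive cells, the crosslinker Flna (filamin A), at 126 against 47.5 FPKM, and 0 were lower, a share near that of all measured genes. The most abundant was Vasp, an actin elongation factor, at 177 and 175 FPKM. Of 15 genes listed with gelsolin, 0 were higher and 1 was lower: Scin, the gelsolin relative scinderin, at 1.08 against 9.62 FPKM (8.89-fold lower, 6.35 to 12.8). Gsn and Scin thus differed in opposite directions, with the actin binder Tmsb4x far above them at 1507 and 942 FPKM. Beside Vim, 1 of 8 measured intermediate filament genes was higher, the lamin gene Lmna, at 71.0 against 22.2 FPKM (3.20-fold, 3.02 to 3.39).

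In the KO and WT pair 3 partners of palladin were higher in KO, Actn4, Lasp1 and Tln1, and 1, Eps8, was lower, among 18 measured. The share of higher genes was near the 16.6% of all measured genes. Actn4 (alpha-actinin) was at 9.29 and 2.48 FPKM. Avil, a gelsolin relative, was lower with Gsn, at 3.06 against 7.74 FPKM, while Vill, another relative, was at 2.06 FPKM in KO and listed at 0 in WT. The keratins Krt8 and Krt18 were higher in KO, at 5.60 and 7.55 FPKM against 0.392 and 0.320 FPKM. Both are epithelial genes, and Lmna was at 80.5 and 124 FPKM.

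**Figure D4:**
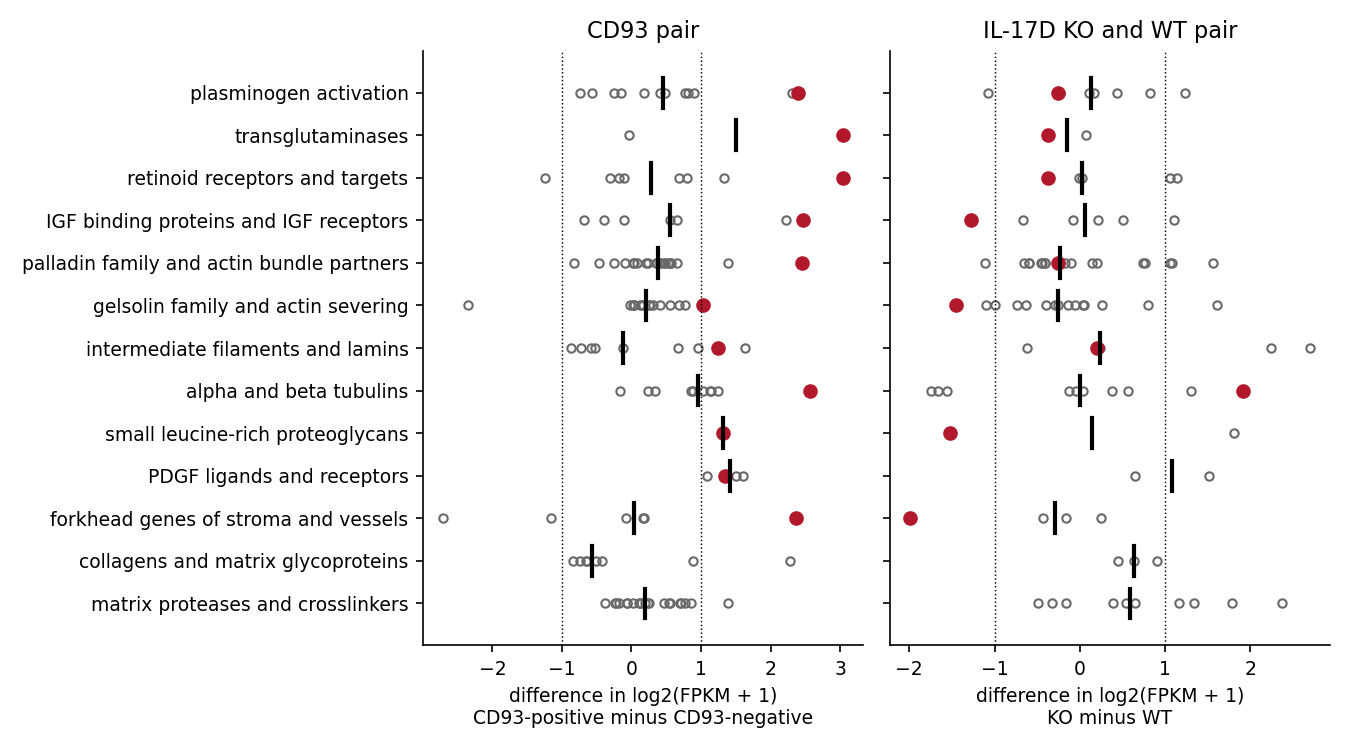
Difference in log2(FPKM + 1) of the measured genes of each of 13 lists, in the CD93 pair (left) and the KO and WT pair (right); open circles are list genes, red circles those of the 10 genes that belong to the list, black bars the medians, and dotted lines 2-fold. Tgm2, Plaur, Palld, Igfbp4, Tuba8 and Foxs1 lie at the right edge of their lists on the left; the PDGF genes all lie above 1 there.

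The matrix genes listed beside Lum were read in the same way, beside 2.49% of all measured genes higher and 1.94% lower. Of the small leucine-rich proteoglycans, Dcn was tabulated beside Lum in the CD93 pair, at 0.175 and 0.218 FPKM. Of 8 measured collagens and matrix glycoproteins, 1 was higher, Col18a1 of basement membranes, at 12.7 against 1.81 FPKM (7.02-fold, 5.91 to 8.39), and the median was -0.57. The most abundant, the laminin chain gene Lamc1, was at 20.3 and 32.7 FPKM. Of 21 measured matrix proteases and crosslinkers, 1 was higher, Adam8, a leukocyte protease, at 241 against 91.4 FPKM (2.64-fold, 2.56 to 2.73), and the median was 0.19. Beside Foxs1, 0 of 5 measured forkhead genes of stroma and vessels were higher and 2 were lower, Foxc2 at 0.971 against 11.9 FPKM (12.2-fold lower, 8.48 to 18.3) and Foxf1 at 2.05 against 5.79 FPKM.

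Since Lum, Pdgfrb and Foxs1 are known markers of stroma, the other markers of those cells were read in the CD93 pair. Of 10 fibroblast markers other than Lum, 5 were tabulated and 0 measured, and they summed to 0.346 FPKM in CD93-positive and 0.535 FPKM in CD93-negative cells, beside 11.3 and 3.95 FPKM for Lum. Col1a1, the main fibrillar collagen of fibroblasts, was at 0.0650 and 0.142 FPKM. The pericyte and smooth muscle markers other than Pdgfrb and Foxs1 summed to 2.31 and 2.97 FPKM, and the 1 of them that was measured was within 2-fold. Neither sum was higher in the CD93-positive library, and the part of stromal cells in the levels of Lum, Pdgfrb and Foxs1 was not tested.

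Marker sums of other cell types lay on either side in the CD93 pair. The endothelial markers summed to 88.8 and 68.1 FPKM, mostly Pecam1 at 74.4 and 59.4 FPKM. Eng (endoglin) was higher, at 11.6 against 3.65 FPKM, while Cdh5, the endothelial cadherin, was at 0.569 and 1.68 FPKM. Of the 4 measured endothelial markers 1 was past 2-fold. Their median was 0.09 as deposited and -0.04 with a common FPKM sum. Macrophage and monocyte markers summed to 46.9 and 30.1 FPKM, with 1 of 7 measured genes higher, Fcgr1, at 2.57 against 0.655 FPKM. Markers of T cells, B cells, mast cells and epithelium were lower in sum in CD93-positive cells. Their sums were 2.74, 2.27, 0.588 and 26.2 FPKM, against 9.94, 4.98, 2.56 and 46.7 FPKM in CD93-negative cells. For enteric glia 1 marker was tabulated and 0 measured, with sums of 0.400 and 0.428 FPKM. ILC3 markers summed to 9504 and 2774 FPKM, mostly Il22 at 7934 and 1655 FPKM; 2 of 14 were at least 2-fold higher, and their median was 0.21. The part of endothelial and macrophage RNA in the differences of the 10 genes was not tested.

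**Figure D5:**
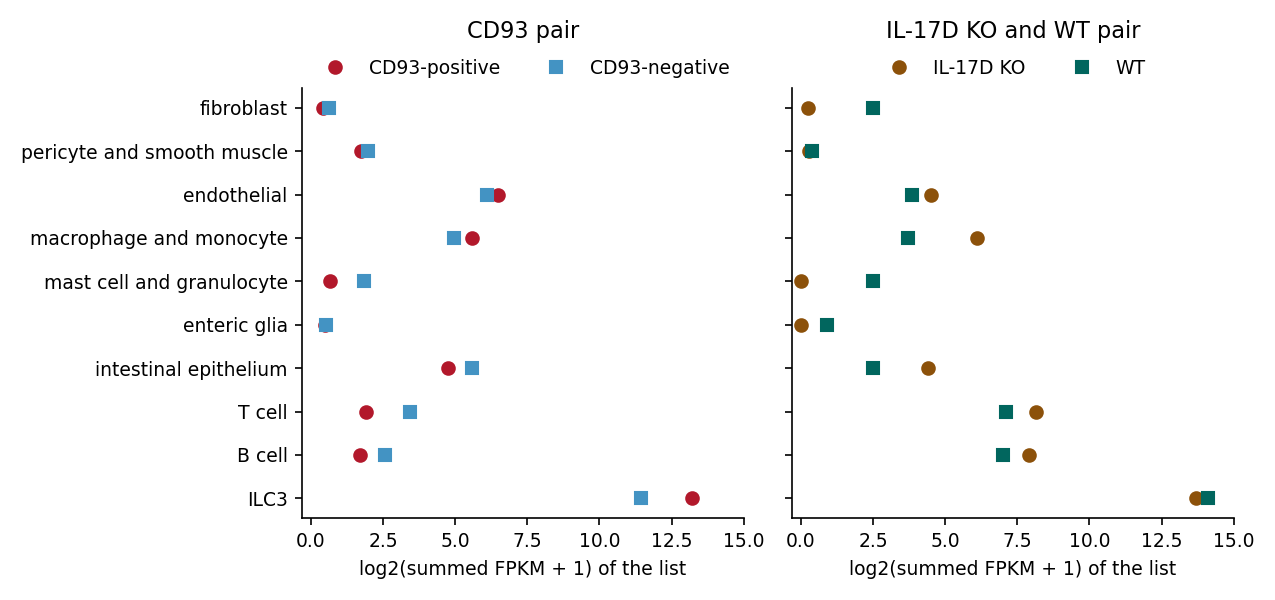
Summed level of the markers of 10 cell types without the 10 genes, as log2(summed FPKM + 1), in each library of the CD93 pair (left) and the KO and WT pair (right). Fibroblast markers lie near 0 in both CD93 libraries and are higher in WT than in KO; ILC3 markers are the highest in every library.

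The genes most like Tgm2, Plaur and Palld were taken by distance in the plane of both differences, over 4 libraries and 3948 genes with at least 5 FPKM in a library of each pair. Tgm2 and Palld do not reach that level in KO or WT and so were not candidates for the other genes. Nearest to Tgm2 was Ccr6, a chemokine receptor, at a distance of 0.41, with 28.8 and 3.47 FPKM in the CD93 pair and 19.8 and 21.1 FPKM in KO and WT. Il17f, a cytokine, followed at 0.55 and Plaur at 0.65. Nearest to Plaur among the candidates were Il22 at 0.24, the chemokine Cx3cl1 at 0.26 (392 and 76.4 FPKM, then 6.13 and 6.14 FPKM) and Lingo4 at 0.32. From Palld the nearest candidate was Plaur, at 0.06, followed by Il22 and Cx3cl1, each at 0.28. Palld was near 1 FPKM in KO and WT, where the pseudocount of 1 shrinks its difference. With a pseudocount of 0.1 the KO and WT differences were -0.47 for Palld and -0.27 for Plaur, and the CD93 differences 2.67 and 2.47. With 1 library a group, this likeness describes 2 differences per gene, and the CD93 difference was used to choose Tgm2, Plaur and Palld.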

How the data were processed

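RNA of 4 ILC3 libraries, 1 per group, was read on a BGISEQ-500 instrument. The authors deposited FPKM per gene, 1 table per library and 1 joint table per pair, which held equal values. Bowtie2, featureCounts (Subread), edgeR and DESeq2 are named per the submitters' processing notes, with mm10 as build. The sources used here do not give versions, order, strand setting or annotation. Values were compared within a pair.

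FPKM times the GENCODE M21 union exon length, divided by a constant of the library, gave whole reads (to 0.02 reads) for most values. The shares, of values above 0 with such a length, were 98.1% (CD93-positive), 98.2% (CD93-negative), 92.1% (KO) and 91.9% (WT). A length was at hand for 12343 of 12489, 12397 of 12544, 10243 of 13966 and 10319 of 14059 values above 0, in the same order. Genes without it have no recovered reads. The recovered reads give the counting intervals, and no row with reads recovered held under 10 over its pair. No molecular identifiers mark PCR copies, so reads are not independent molecules. A gene with 0 reads was bounded against 3 reads. The recovery of reads was tested on simulated data. Differences used a pseudocount of 1, a minimum of 1 FPKM and a 2-fold limit. With 1 library per group no p-value was computed.

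The 10 genes and all 23 lists (13 of partners, 10 of markers) were chosen with earlier results of these data known. The text names the 10 genes, list genes at least 2-fold apart, the most abundant of a list and the 3 genes nearest in pattern to Tgm2, Plaur and Palld; other genes of a list (such as Plau, Igf1r, Pdgfra, Dcn, Col1a1, Cdh5 and Lmna in the KO and WT pair) were added after their values were seen. Some genes of the lists are not reported here. Alternatives were pseudocounts of 0.1 and 5, no filter or 5 FPKM, a 3-fold limit and 3 scalings: a common FPKM sum, that sum leaving out receptor segment, small RNA, mitochondrial and ribosomal protein genes, and a median ratio of 1. Python 3.11.15, numpy 2.4.6, pandas 2.3.3, scipy 1.17.1 and matplotlib 3.10.9 were used.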

Additional observations from a re-analysis of the deposited data

How the results depend on the processing

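Of the differences of the single genes under other pseudocounts and scalings, 68 moved by less than their counting error, 32 were counted as moving by more, and 0 of those past 2-fold changed sign; filters and the 3-fold limit cannot change such a value. For Lum in the KO and WT pair, with 0 reads in KO, the counting error was set to 0. All its values are therefore among the 32, however little they moved. The 68, in turn, are not all small moves, since genes with few reads have wide counting errors. Igfbp4 in that pair went from -1.28 to -3.83 with a pseudocount of 0.1 and to -0.36 with 5. Foxs1 went from -1.99 to -0.71 with a pseudocount of 5. These 3 values are among the 68. With a pseudocount of 5, the median of the 10 genes in the CD93 pair was 1.66 in place of 2.38, and 7 were at least 2-fold higher. With a 3-fold limit 6 of 10 were counted. Under each scaling 9 were, and 0 were lower throughout. Between KO and WT, the 4 lower genes became 0 with a pseudocount of 5, 0 with a minimum of 5 FPKM and 1 with a 3-fold limit. With the minimum of 5 FPKM, 3 genes were left and their median was 0.20 in place of -0.37. By construction, the minimum of 5 FPKM leaves these low genes out of the count, and a larger pseudocount shrinks their differences. Tuba8 was the 1 higher gene under every alternative run. No paired analysis was possible because each group had 1 library, and no replicate could be left out. The depth limits Foxs1, Gsn, Igfbp4 and Lum in KO, where they had 3, 9, 1 and 0 reads.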
